A study of Mus musculus with 6 samples.

Results

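The targets of the tumour suppressor p53 were examined in neurospheres, which are free-floating balls of cultured neural stem cells and their progeny. A list of 40 p53 target genes was taken by gene symbol, and a gene was kept when 3 or more of the 6 arrays gave one of its probes a detection p below 0.05. Of the 40 genes 38 had a named probe and 34 were kept, with 61 of their 83 probes, among 12755 features tested on the whole array. Bax and Gdf15 were not analysed here. Btg2 was above background on 1 array, and Perp, Tigar and Abcb1a on none, so these 4 were not kept. Of the 34 kept genes 32 were above background on all 6 arrays and Mdm4 and Eda2r on 5, so no kept gene owed its place to one group alone.

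RNA came from spheres grown from the subventricular zone of mice aged 18 months, untreated, with EGF and FGF for 14 days in vitro. Wild-type mice (wt) gave 1 array of primary and 2 of secondary spheres, and mice carrying a Wip1 transgene (Wip1-Tg) gave 2 arrays of primary and 1 of secondary spheres. The promoter of the transgene is not given in the labels, nor is it said whether arrays of a group represent different animals or cultures. The p-values therefore measure the spread between these arrays alone, which may be technical. The labels call the mice gender matched, yet Xist, which is transcribed from the silenced X chromosome, gave signal from all 4 of its probes on Wip1-Tg primary 2 and on the 3 secondary arrays, and from none on wt primary 1 or Wip1-Tg primary 1. Passage and Xist signal thus largely coincide. Within wt, where the primary array lacks the signal and both secondary arrays have it, they cannot be told apart. A probe of the Y-linked gene Kdm5d gave signal on wt primary 1 (6.82) and Wip1-Tg primary 1 (6.32) alone, its other probe on no array. A probe of Uty, also Y-linked, gave signal there and on Wip1-Tg primary 2 and wt secondary 1. What these signals say of the sex of the mice was not tested. Median raw intensity was 150.88 to 168.44 per array, and 38.9 to 41.3% of the 45281 probes were above background. Of 14 listed stem and progenitor markers 9 were kept, Nes, Sox2 and Egfr among them. All 10 listed astrocyte markers were kept, with 8 of 10 for the oligodendrocyte lineage, 8 of 10 for neuroblasts and neurons and 6 of 10 ependymal markers. Only 2 of 10 listed microglial and immune markers and 1 of 10 listed endothelial, mural and fibroblast markers were kept.

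p53 is a transcription factor that is held at a low level by the ubiquitin ligase Mdm2 and is stabilised when damage kinases phosphorylate it or Mdm2. It then raises genes that halt the cell cycle, start apoptosis, repair DNA and adjust metabolism, and also genes, Mdm2 first among them, that bring p53 down again. Wip1, the phosphatase encoded by Ppm1d, is itself a p53 target and removes phosphates from p53, Mdm2, p38 and the damage kinases. In the adult subventricular zone p53 is known as a restraint on the proliferation and self-renewal of neural stem cells.

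Promoters are shown for 6 genes that fell between primary and secondary spheres or were among the 6 with the smallest genotype p, taking those that hold a p53 consensus decamer, one arm of the palindromic p53 binding element, or a cell cycle homology region (TTTGAA or TTTAAA, both strands), an element of genes expressed in G2 and mitosis. Each line gives the 250 bases before a start site, 5′ to 3′ on the gene's strand (RefSeq, GRCm38.p6), with the matches in capitals. The decamer lies 40 bases before the start of Gadd45a (chr6:67037408-67037657, minus strand) and 173 bases before a start inside Sesn1 (chr10:41887189-41887438, plus strand). TTTAAA lies 12 bases before the start of Gtse1 (chr15:85859457-85859706, plus strand), 24 before that of Plk2 (chr13:110394794-110395043, plus strand) and 112 before a start of Rps27l (chr9:66945836-66946085, plus strand). TTTGAA on the opposite strand begins 104 bases before the start of Fas (chr19:34290409-34290658, plus strand). The matches are of sequence alone, and whether any works as the named element was not tested.
Gadd45a: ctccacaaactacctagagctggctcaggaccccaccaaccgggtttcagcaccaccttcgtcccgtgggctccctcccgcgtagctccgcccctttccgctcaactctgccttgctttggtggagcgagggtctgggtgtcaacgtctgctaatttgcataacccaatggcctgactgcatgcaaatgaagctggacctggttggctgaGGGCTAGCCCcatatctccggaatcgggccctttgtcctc
Sesn1: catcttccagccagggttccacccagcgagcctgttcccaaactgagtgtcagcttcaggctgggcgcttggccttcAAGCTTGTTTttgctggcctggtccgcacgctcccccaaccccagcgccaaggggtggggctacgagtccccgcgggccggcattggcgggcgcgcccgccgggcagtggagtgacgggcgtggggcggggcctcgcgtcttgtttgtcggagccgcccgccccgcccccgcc
Gtse1: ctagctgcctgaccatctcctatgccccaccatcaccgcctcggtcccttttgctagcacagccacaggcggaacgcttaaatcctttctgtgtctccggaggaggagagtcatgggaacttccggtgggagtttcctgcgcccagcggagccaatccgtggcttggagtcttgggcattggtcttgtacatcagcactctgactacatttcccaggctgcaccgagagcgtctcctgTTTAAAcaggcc
Plk2: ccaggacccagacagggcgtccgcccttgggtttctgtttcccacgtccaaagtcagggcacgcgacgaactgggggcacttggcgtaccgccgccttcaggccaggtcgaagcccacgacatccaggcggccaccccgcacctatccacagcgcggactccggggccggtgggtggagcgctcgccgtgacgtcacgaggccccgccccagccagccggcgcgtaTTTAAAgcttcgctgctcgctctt
Rps27l: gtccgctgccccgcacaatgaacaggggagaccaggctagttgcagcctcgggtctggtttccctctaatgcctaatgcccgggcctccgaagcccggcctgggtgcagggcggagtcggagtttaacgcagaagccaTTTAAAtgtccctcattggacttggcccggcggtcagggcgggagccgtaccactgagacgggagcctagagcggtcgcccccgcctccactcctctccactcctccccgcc
Fas: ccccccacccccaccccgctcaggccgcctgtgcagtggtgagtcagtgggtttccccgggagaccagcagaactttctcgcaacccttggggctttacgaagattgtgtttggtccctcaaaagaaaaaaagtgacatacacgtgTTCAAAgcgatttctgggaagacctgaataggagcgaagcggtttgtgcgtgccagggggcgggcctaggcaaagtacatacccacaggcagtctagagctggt

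Over all 32851 promoter windows in the table, 7.13% held the decamer and 25.2% the cell cycle homology region. Of 41 windows for 26 of the kept p53 targets, 8 (19.5%) held the decamer and 12 (29.3%) the cell cycle homology region. The decamer was also present before starts of Mdm2, Ccng1, Aen, Ei24, Polk and a second start of Rps27l, and in none of these did the 2 kinds of motif overlap. Some genes have several windows, some of which overlap, so the windows are not independent.

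The first comparison set secondary spheres against primary ones. Of the 34 genes 11 fell and 1 rose past the threshold (adjusted p under 0.05 over all features). The background was high, since 28.1% of all features passed, 13.8% of them as lower and 14.3% as higher. The genes that fell were 5 of the 8 arrest genes, led by Gadd45a (3.52-fold), and 6 of the 12 apoptosis genes, led by Fas (2.71-fold) and Phlda3 (2.41-fold). None of the 3 feedback genes and none of the 6 kept metabolic and other genes passed, and of the 5 repair genes 1 rose, Ddb2 (1.37-fold). Several of the genes that did not pass did so under some of the 18 alternatives: as lower, Ccng1 in 5, Mdm2 in 3, Dcxr in 7, Sulf2 in 6, Sesn1 in 4 and Polk in 6, and as higher, Rrm2b in 5. The median log2 difference of the 34 genes, secondary minus primary, was -0.34, beside 0.04 over all features, with 24 negative values (45.9% of all features were negative) and 10 positive (54.1%). In bulk RNA, fewer cells of a type and less RNA per cell cannot be told apart.

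**Figure D1:**
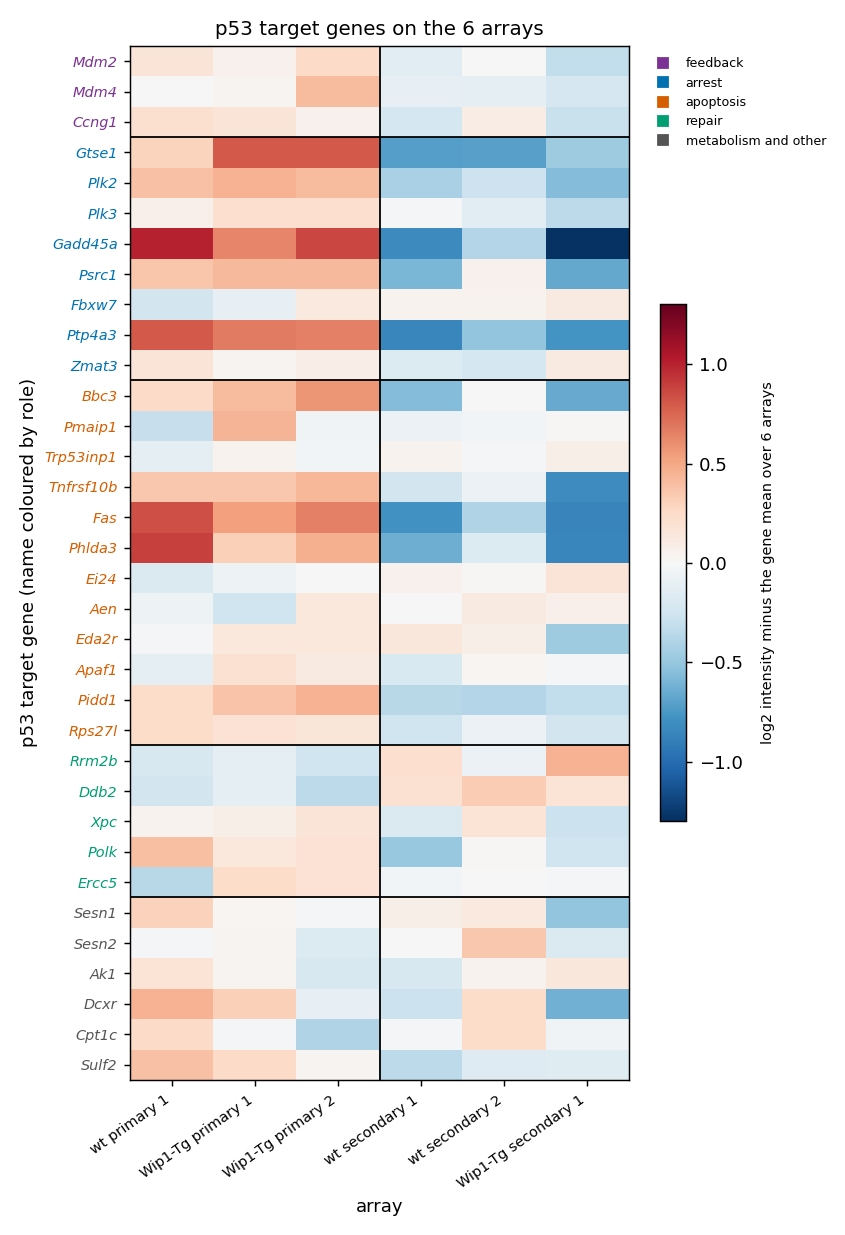
Log2 intensity of each of the 34 p53 target genes (rows, names coloured by role) on each of the 6 arrays (columns), as the difference from the gene's own mean over the 6 arrays. Gadd45a, Fas, Phlda3 and Ptp4a3 are high on the 3 primary arrays and low on the 3 secondary ones, while Ddb2 and Rrm2b run the other way.

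Among the feedback genes, Mdm2 stood at a log2 intensity of 11.10 in wt primary, 10.98 and 11.18 in Wip1-Tg primary, 10.79 and 10.92 in wt secondary and 10.60 in Wip1-Tg secondary spheres. All 3 secondary arrays lay below the primary ones, by a fitted difference of -0.36 (SE 0.13, limma adjusted p = 0.08265) that did not pass. Ccng1, the cyclin that brings a phosphatase to Mdm2, read 13.13, then 13.09 and 12.97, then 12.69 and 13.01, then 12.63 on the arrays in the same order. Its groups overlapped, and the difference was -0.34 (SE 0.137, limma adjusted p = 0.1131). The other 2 kept Ccng1 probes gave -0.82 and -0.80, and with the mean of the 3 probes Ccng1 passed (-0.65, adjusted p = 0.01671). Mdm4, an Mdm2 relative that binds p53, was dim, at 5.46 in wt primary, 5.50 and 5.88 in Wip1-Tg primary, 5.37 and 5.36 in wt secondary and 5.26 in Wip1-Tg secondary spheres, where it was not above background. Its secondary arrays all lay lower, by -0.27 (SE 0.155, limma adjusted p = 0.238).

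Gadd45a, a damage-induced inhibitor of cell cycle progression, had the largest fall of the 34 genes. Its log2 intensity reached 10.90 in wt primary, with 10.54 and 10.77 in Wip1-Tg primary spheres, then 9.07 and 9.53 in wt secondary and 8.63 in Wip1-Tg secondary spheres. The groups did not overlap, and the difference was -1.82 (SE 0.182, 95% interval -2.25 to -1.38, n = 3 arrays per passage, limma adjusted p = 0.0014), with -1.70 from its second probe. Ptp4a3, the phosphatase PRL-3, read 9.65 in wt primary, 9.53 and 9.51 in Wip1-Tg primary, 8.01 and 8.34 in wt secondary and 8.08 in Wip1-Tg secondary spheres. It fell 2.76-fold (-1.46, SE 0.134, limma adjusted p = 0.001062), by nearly the same amount within wt (-1.48) and within Wip1-Tg (-1.44).

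Gtse1 and Psrc1, both proteins of the microtubules and spindle, are p53 targets that also belong to dividing cells. Gtse1, whose human protein carries p53 out of the nucleus in G2, read 9.83 in wt primary, 10.34 and 10.34 in Wip1-Tg primary, 8.82 and 8.83 in wt secondary and 9.08 in Wip1-Tg secondary spheres. It fell 2.19-fold (-1.13, SE 0.119, limma adjusted p = 0.001565). Psrc1 read 8.34, then 8.40 and 8.39, then 7.38 and 8.03, then 7.31 in the same order, and fell 1.82-fold (-0.86, SE 0.21, limma adjusted p = 0.02642). The 2 wt secondary arrays of Psrc1 lay far apart, and the call of Psrc1 ended when wt primary 1 (-1.09, adjusted p = 0.06494), Wip1-Tg primary 1 (-0.83, 0.06438), Wip1-Tg primary 2 (-0.83, 0.06155), wt secondary 1 (-0.75, 0.06006) or Wip1-Tg secondary 1 (-0.63, 0.2022) was left out.

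The polo-like kinase gene Plk2 read 8.81 in wt primary, 8.88 and 8.84 in Wip1-Tg primary, 8.01 and 8.16 in wt secondary and 7.87 in Wip1-Tg secondary spheres. It fell 1.81-fold (-0.86, SE 0.125, limma adjusted p = 0.004911). Its relative Plk3 lay lower on each secondary array too, by -0.35 (SE 0.137, limma adjusted p = 0.1037), which did not pass. It was -0.14 within wt and -0.55 within Wip1-Tg spheres, and it passed under median scaling (-0.70, adjusted p = 0.01557). Fbxw7, the subunit of a ubiquitin ligase that selects cyclin E and Myc, and Zmat3, an RNA-binding protein, had overlapping passages and did not pass, with log2 intensities of 8.36 to 8.73 and 10.47 to 10.86.

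Genes of the G2 and mitosis list also fell from primary to secondary spheres. Of its 25 entries 16 were measured, and 15 of the 16 (93.8%) passed the threshold as lower in secondary spheres, beside 13.8% of all features. Ube2c is among the 15, but it was above background on the 3 primary arrays alone, so it passed the filter only through that group. The list mean given below includes it. Other examples were Cenpa (-1.22, SE 0.126), Cdc20 (-1.20, SE 0.16) and Bub1b (-1.19, SE 0.244), all limma values past the threshold. The other kept probe of Cenpa gave -0.12 (adjusted p = 0.6804). Cdc20 lost its call in 2 of 18 alternatives and Bub1b in 4, among them without wt primary 1 (-1.14, 0.1015) and without Wip1-Tg secondary 1 (-1.23, 0.09786). The mean log2 intensity of the list was 9.18 to 9.65 on the primary and 7.87 to 8.78 on the secondary arrays. Within secondary spheres the list mean was lowest on wt secondary 2 (7.87) and highest on Wip1-Tg secondary 1 (8.78). Gtse1 was also highest on Wip1-Tg secondary 1, by both of its kept probes, whereas Psrc1 was lowest there and highest on wt secondary 2. Gadd45a was highest on wt secondary 2 by both kept probes and lowest on Wip1-Tg secondary 1 by 1 of the 2. Among secondary arrays the mean of the 8 arrest genes ran opposite to the list mean. It was highest on wt secondary 2 (8.63) and lowest on Wip1-Tg secondary 1 (8.42). The part of cell division in these falls was not tested.

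**Figure D2:**
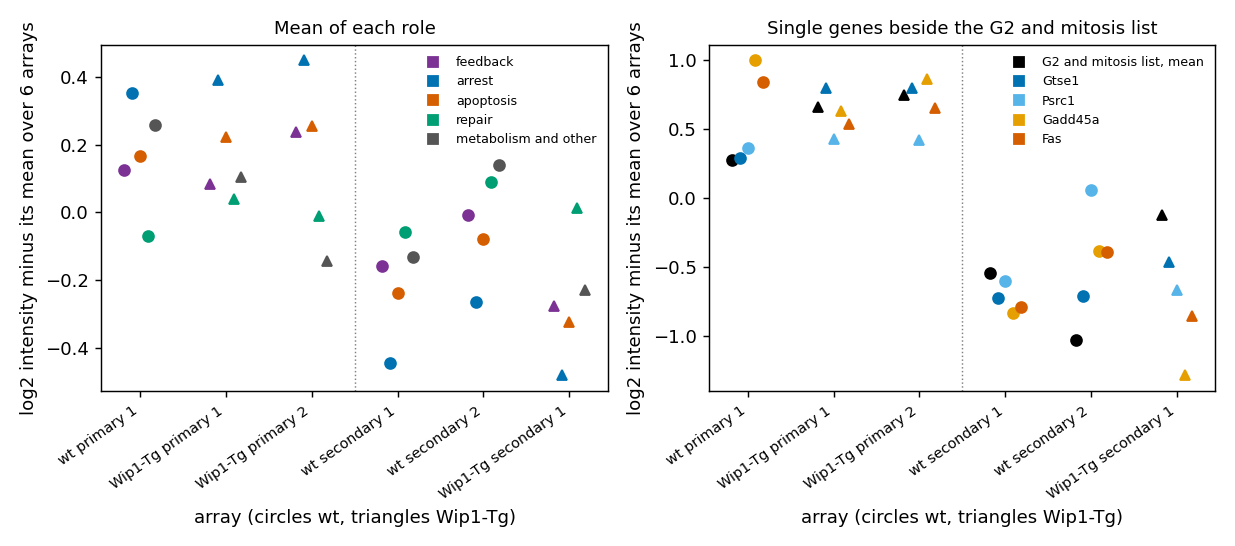
Log2 intensity on each array as the difference from its mean over the 6 arrays, for the mean of each role (left) and for 4 genes beside the mean of the G2 and mitosis list (right), with circles for wt and triangles for Wip1-Tg. The arrest genes are high on the 3 primary and low on the 3 secondary arrays, the repair genes stay close to 0, and among secondary arrays the list mean is lowest on wt secondary 2.

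Both death receptors fell. Fas read 10.64 in wt primary, 10.34 and 10.45 in Wip1-Tg primary, 9.02 and 9.41 in wt secondary and 8.95 in Wip1-Tg secondary spheres. The groups were separated by more than the spread within them, with a difference of -1.44 (SE 0.146, 95% interval -1.79 to -1.09, limma adjusted p = 0.001443), -1.43 within wt and -1.45 within Wip1-Tg. The second kept Fas probe gave -1.39. Tnfrsf10b, the mouse receptor for TRAIL, read 8.58 in wt primary, 8.58 and 8.66 in Wip1-Tg primary, 7.99 and 8.16 in wt secondary and 7.41 in Wip1-Tg secondary spheres. It fell 1.82-fold (-0.86, SE 0.18, limma adjusted p = 0.01613), and lost its call without Wip1-Tg secondary 1 (-0.51, adjusted p = 0.1048). The 4 kept probes ranged from -1.27 to -0.74. Those at -1.27 and -0.94 were above background on the 3 primary arrays alone, so they were kept only through that group and add no support. Eda2r, the X-linked receptor for ectodysplasin A2, was dim at 5.27 to 5.88 and its passages overlapped.

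Phlda3, which competes with Akt for membrane lipids, read 12.36 in wt primary, 11.77 and 11.92 in Wip1-Tg primary, 10.83 and 11.28 in wt secondary and 10.61 in Wip1-Tg secondary spheres. It fell by 1.27 on the log2 scale (difference -1.27, SE 0.157, limma adjusted p = 0.002745), and its second probe gave -2.54. Pidd1, the scaffold that activates caspase-2, fell 1.59-fold, from 7.65 in wt primary and 7.79 and 7.87 in Wip1-Tg primary to 7.06 and 7.04 in wt secondary and 7.10 in Wip1-Tg secondary spheres (-0.67, SE 0.112, limma adjusted p = 0.007803). Without Wip1-Tg secondary 1 Pidd1 kept its size and lost its call (-0.61, adjusted p = 0.06279).

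Bbc3, the BH3-only protein PUMA, fell 1.79-fold by its brightest probe (-0.84, SE 0.212, limma adjusted p = 0.02919), from 10.09 in wt primary and 10.25 and 10.41 in Wip1-Tg primary to 9.28 and 9.83 in wt secondary and 9.19 in Wip1-Tg secondary spheres. Its other 2 kept probes, dim at 5.51 to 6.60, gave 0.16 and 0.54, so the fall was seen with 1 of 3 probes. The Bbc3 call also ended without Wip1-Tg primary 1 (-0.83, adjusted p = 0.06721), Wip1-Tg primary 2 (-0.76, 0.06631), wt secondary 1 (-0.76, 0.07327) or Wip1-Tg secondary 1 (-0.53, 0.2312). Rps27l, a ribosomal protein variant, fell 1.33-fold (-0.41, SE 0.117, limma adjusted p = 0.04172), from 14.44 in wt primary and 14.39 and 14.35 in Wip1-Tg primary to 13.94 and 14.12 in wt secondary and 13.96 in Wip1-Tg secondary spheres. Its difference was -0.45 to -0.37 as each of the 6 arrays was left out in turn, and the call was lost each time (wt primary 1 0.1416, Wip1-Tg primary 1 0.1058, Wip1-Tg primary 2 0.08239, wt secondary 1 0.1106, wt secondary 2 0.05058, Wip1-Tg secondary 1 0.1586). The other apoptosis genes did not pass: Pmaip1 (Noxa), Trp53inp1, Aen, a nuclease, and Apaf1, the core of the apoptosome, had overlapping passages, and Ei24, an endoplasmic reticulum protein, lay slightly higher on each secondary array (11.63 to 11.78 against 11.43 to 11.61).

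The repair genes did not share a direction. Ddb2, which recognises ultraviolet lesions, read 6.68 in wt primary, 6.78 and 6.57 in Wip1-Tg primary, 7.11 and 7.24 in wt secondary and 7.09 in Wip1-Tg secondary spheres. The rise of 0.46 (SE 0.124, limma adjusted p = 0.03675) was carried by that probe, the other 2 kept probes giving 0.06 and -0.43. Its size was 0.42 to 0.51 as each of the 6 arrays was left out and the call was lost each time (wt primary 1 0.1595, Wip1-Tg primary 1 0.05649, Wip1-Tg primary 2 0.08401, wt secondary 1 0.07752, wt secondary 2 0.07426, Wip1-Tg secondary 1 0.126). Rrm2b, the p53-induced subunit of ribonucleotide reductase, differed by 0.46 (SE 0.151, limma adjusted p = 0.06354) and Polk, a translesion polymerase, by -0.53 (SE 0.168, limma adjusted p = 0.05834). Neither passed, although neither had overlapping passages. Xpc, the partner of Ddb2 in lesion recognition, read 7.62 to 8.08 with overlapping passages.

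Ercc5, the endonuclease XPG, had 2 probes above background that went apart. The brighter read 9.87 in wt primary, 10.47 and 10.41 in Wip1-Tg primary, 10.19 and 10.23 in wt secondary and 10.20 in Wip1-Tg secondary spheres, a passage difference of 0.05 (SE 0.156). The other read 10.30 in wt primary and 9.70 and 9.53 in Wip1-Tg primary spheres, and 5.35, 5.41 and 4.89 on the secondary arrays, where it was above background on 2 of 3, a difference of -4.82. With that probe in place of the brighter one Ercc5 was called lower (adjusted p = 6.65e-05). Which of the probes reports the gene was not tested.

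The metabolic and other genes did not pass. Dcxr, a carbonyl and xylulose reductase, differed by -0.60 (SE 0.199, limma adjusted p = 0.06413), Sulf2, an extracellular sulfatase of heparan sulfate, by -0.47 (SE 0.143, limma adjusted p = 0.05226) and Sesn1, a stress-induced inhibitor of mTORC1, by -0.36 (SE 0.125, limma adjusted p = 0.07693). Of the 6 genes only Sulf2 had passages that did not overlap. Sesn2, Ak1 (adenylate kinase 1) and Cpt1c, the brain form of carnitine palmitoyltransferase, ranged from 7.71 to 8.25, 9.99 to 10.37 and 7.998 to 8.63 with overlapping passages.

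**Figure D3:**
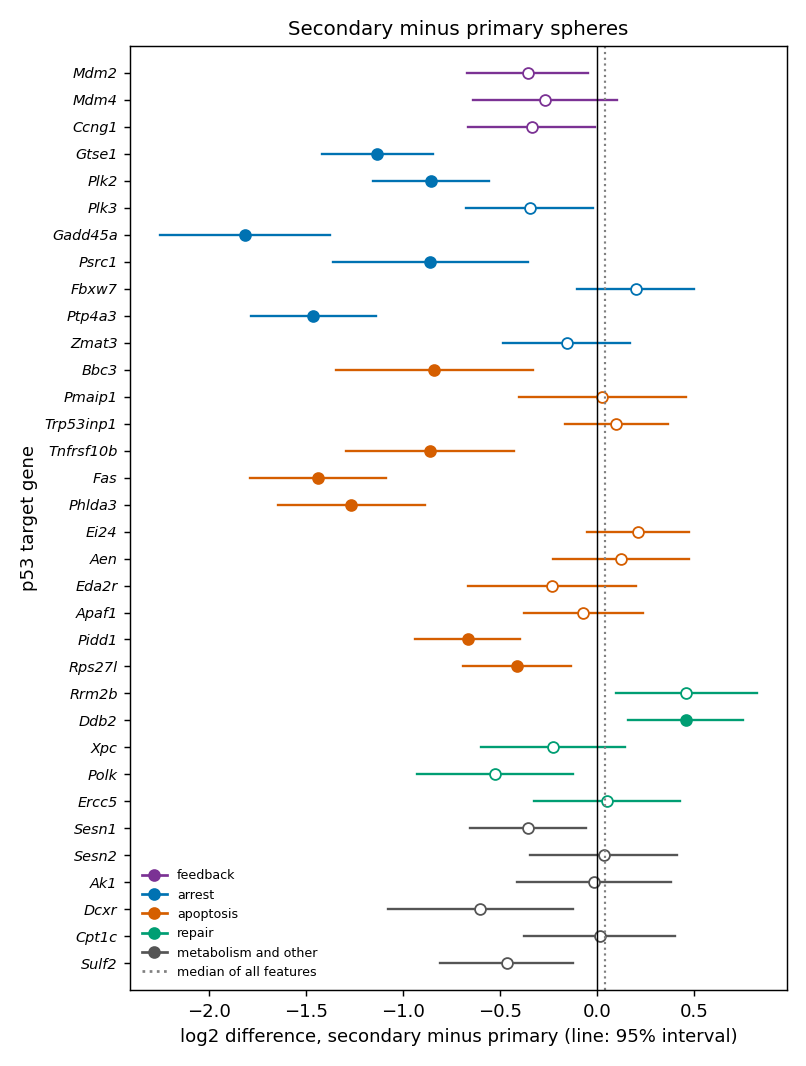
Fitted log2 difference, secondary minus primary spheres, of each of the 34 p53 target genes with its 95% interval, coloured by role. Filled points passed the threshold, and the dotted line is the median of all features (0.04). The filled points are 11 falls among arrest and apoptosis genes and the rise of Ddb2.

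Without any model, the 3 secondary arrays lay wholly below the 3 primary ones in 16 of the 34 genes and wholly above in 3, where 21.8% and 25% of all features did so and 46.8% did either. The fitted difference was negative in both genotypes for 20 genes (34.1% of all features) and positive in both for 6 (40.1% of all features). A fitted fall of at least 2-fold was seen in 5 genes, Gadd45a, Ptp4a3, Fas, Phlda3 and Gtse1 (5.75% of all features), and a rise of that size in 0 (3.63%). The count of 12 went down to 6 without Wip1-Tg secondary 1, when 1363 of all features were called in place of 3583. On the 4 arrays with Xist signal it was 5 (Gtse1, Gadd45a, Ptp4a3, Fas and Tnfrsf10b, all lower). The primary spheres are a single array there, so that this fit sets Wip1-Tg primary 2 against Wip1-Tg secondary 1 and takes its spread from the wt secondary pair.

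The second comparison set Wip1-Tg spheres against wt spheres, with passage in the model. None of the 34 genes passed with limma over all features, of which 0% passed. At an unadjusted p under 0.05 there were 5 of the 34 (14.7%), beside 10.1% of all features, and the count of p53 targets past the adjusted threshold was also 0 without moderation and with trend and robust variance. Of the 5, Sesn1, Phlda3, Gadd45a and Dcxr had lower and Gtse1 higher fitted values in Wip1-Tg spheres. The median difference of the 34 genes, Wip1-Tg minus wt, was -0.07, beside 0.01 over all features, with 12 positive values (51.7% of all features were positive) and 22 negative (48.3%). The median was 0.007 within primary spheres and -0.10 within secondary spheres. Leaving out Wip1-Tg secondary 1 gives the same 0.007, because genotype is then compared within primary spheres alone.

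Sesn1 had the smallest p of the list. It was at 10.98 in wt primary against 10.72 and 10.67 in Wip1-Tg primary spheres, and at 10.76 and 10.81 in wt secondary against 10.18 in Wip1-Tg secondary spheres, so Wip1-Tg lay below wt in both passages. The difference was -0.45 (SE 0.125, 95% interval -0.75 to -0.15, n = 3 arrays per genotype, limma adjusted p = 0.441), and its 3 kept probes ranged from -0.63 to -0.40. Phlda3, by the array values above, was also below wt in both passages (-0.48, SE 0.157, limma adjusted p = 0.4577, second probe -0.58). The difference of Gadd45a was -0.46 (SE 0.182, limma adjusted p = 0.4891), with -0.25 within primary and -0.67 within secondary spheres.

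Dcxr was at 10.96 in wt primary against 10.82 and 10.40 in Wip1-Tg primary, and at 10.22 and 10.75 in wt secondary against 9.88 in Wip1-Tg secondary spheres (-0.48, SE 0.199, limma adjusted p = 0.4952). The 2 wt secondary arrays and the 2 Wip1-Tg primary arrays each differed from one another by about as much as the genotypes. Cpt1c was at 8.63 in wt primary against 8.36 and 7.998 in Wip1-Tg primary, and at 8.36 and 8.62 in wt secondary against 8.34 in Wip1-Tg secondary spheres (-0.30, SE 0.162, limma adjusted p = 0.5783). All 6 of the metabolic and other genes had negative fitted differences, from -0.48 to -0.02.

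Gtse1 was higher in Wip1-Tg than in wt spheres on the arrays of both passages, by 0.38 (SE 0.119, 95% interval 0.10 to 0.66, limma adjusted p = 0.4503), with 0.51 within primary and 0.25 within secondary spheres and 0.39 from its second probe. Of the 16 G2 and mitosis genes 15 had positive differences as well (median 0.60), beside 51.7% of all features. The negative difference was that of Kif23 (-0.49), whose kept probes ranged from -0.49 to 0.74. None of the 16 genes passed with limma. At an unadjusted p under 0.05 there were 15 of the 16, 14 with positive and 1 with a negative difference, beside 10.1% of all features. Their mean was 9.18 on wt primary against 9.56 and 9.65 on Wip1-Tg primary, and 8.36 and 7.87 on wt secondary against 8.78 on Wip1-Tg secondary arrays. Psrc1, the other spindle gene, differed by less than its spread (7.31 on Wip1-Tg secondary against 7.38 and 8.03 on wt secondary arrays). The part of cell division in the Gtse1 difference was not tested.

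None of the feedback genes passed for genotype. Mdm2 had a difference of -0.14 (SE 0.13, 95% interval -0.45 to 0.18), Ccng1 of -0.16 (SE 0.137, 95% interval -0.49 to 0.17) and Mdm4 of 0.06 (SE 0.155, 95% interval -0.31 to 0.43). Each of these limma intervals spans 0. The other 2 kept Ccng1 probes gave -0.23 and -0.51.

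**Figure D4:**
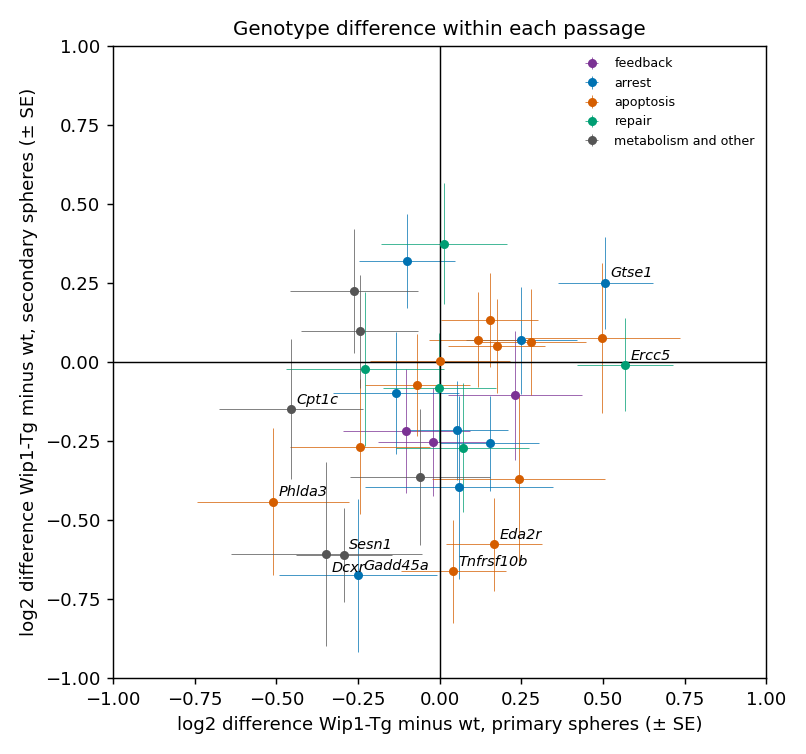
Log2 difference Wip1-Tg minus wt within primary (x axis) and within secondary spheres (y axis) for each of the 34 p53 target genes, with standard errors from the model with an interaction and points coloured by role. Sesn1, Gadd45a, Phlda3 and Dcxr lie below 0 on both axes, Gtse1 above 0 on both, and Eda2r and Tnfrsf10b are below 0 on the y axis and above 0 on the x axis.

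By array values, Wip1-Tg lay wholly on one side of wt in both passages for 13 of the 34 genes, where 30.3% of all features did so. The genes above were Gtse1, Fbxw7, Pmaip1, Trp53inp1, Ei24 and Pidd1, 6 in all (16.2% of all features), with fitted differences of 0.38, 0.16, 0.29, 0.09, 0.14 and 0.11. The genes below were Ccng1, Gadd45a, Fas, Phlda3, Sesn1, Dcxr and Cpt1c, 7 in all (14.1% of all features), with Fas at -0.26 (SE 0.146). After each array was scaled to its median in place of quantile normalization, the median of all features was -0.19 and that of the p53 targets -0.28, so that the difference from all features was -0.09 in place of -0.08. The 6 genes above were then 1 and the 7 below 21. No share of all features stands beside these counts under that scaling, so they are not read as a result about the p53 targets.

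Within secondary spheres the single Wip1-Tg array stood low on these genes. Wip1-Tg secondary 1 was the lowest of the 6 arrays in 16 of the 34 genes, beside 19.8% of all features, and below both wt secondary arrays in 18, beside 38.1%. The first count takes in the passage falls, since in genes lower on all secondary arrays the lowest array is a secondary one. The wt secondary arrays were themselves apart, with replicate 2 above replicate 1 in 26 of the 34 genes, beside 49.4% of all features. A single array stands for its group here, and its distance from the pair cannot be told apart from the spread between arrays.

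The third comparison asked whether the genotype difference depended on passage. No member passed the limma test of the interaction, nor did any other feature (0%), and 3 of the 34 had an unadjusted p under 0.05, beside 9.38% of all features. Eda2r was at 5.71 in wt primary against 5.87 and 5.87 in Wip1-Tg primary, and at 5.88 and 5.81 in wt secondary against 5.27 in Wip1-Tg secondary spheres, where it was not above background. Its interaction was -0.74 (SE 0.208, limma adjusted p = 0.4891). That of Tnfrsf10b was -0.70 (SE 0.229, limma adjusted p = 0.5013), from 0.04 within primary and -0.66 within secondary spheres. It rests on the single Wip1-Tg secondary array and turned with the mean of its kept probes (0.26) and with the dimmest one (0.09). That of Ercc5 was -0.58 (SE 0.208, limma adjusted p = 0.5115), from 0.57 and -0.01, and rests on the single wt primary array.

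The rest of the pathway was read from 2 further lists. Of 28 p53 regulators 19 were measured, of which 5 rose and 1 fell with passage (31.6%, close to the 28.1% of all features) and 0 passed for genotype. Hipk2, a kinase that phosphorylates p53, rose by 0.74 (SE 0.117, limma adjusted p = 0.006355), Ppm1d rose by 0.69 (SE 0.125, limma adjusted p = 0.009851) and Chek2, a damage kinase, fell by 0.75 (difference -0.75, SE 0.175, limma adjusted p = 0.02318). Ppm1d was at 9.29 in wt primary, 9.53 and 9.71 in Wip1-Tg primary, 10.13 and 9.98 in wt secondary and 10.24 in Wip1-Tg secondary spheres, a genotype difference of 0.26 (SE 0.125, limma adjusted p = 0.5395). The passage call of Ppm1d ended in 5 of 18 alternatives. These were median scaling (0.37, adjusted p = 0.156), no moderation (0.05379), the arrays with Xist signal (0.53) and leaving out wt primary 1 (0.06999) or Wip1-Tg secondary 1 (0.05197). The passage call of Hipk2 ended in 4: its other probe (0.26, adjusted p = 0.2013), median scaling (0.46, 0.07828), the arrays with Xist signal (0.87) and without Wip1-Tg secondary 1 (0.62, 0.05645). The passage call of Chek2 ended in 6. These were its dimmest probe (-0.24, adjusted p = 0.2076), no moderation (0.1204), the arrays with Xist signal (-1.04) and leaving out wt primary 1 (0.1035), wt secondary 2 (0.05025) or Wip1-Tg secondary 1 (0.1391). Whether the Ppm1d probe also detects the transgene is not stated in the labels. Trp53 was not analysed here.

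Of 22 further p53 targets 16 were measured, of which 9 fell and 1 rose with passage (62.5%, beside 28.1% of all features) and 0 passed for genotype. Pml, which forms nuclear bodies, fell by 1.67 (difference -1.67, SE 0.206), with -0.14 to -1.67 over its 3 kept probes. The receptor kinase gene Epha2 fell at least 2.34-fold and the cytokine gene Lif at least 1.84-fold, as lower bounds because their signal in all 3 secondary samples was at background. Both are among the 9, yet they passed the filter through the primary arrays alone. A fall was thus built into their selection, and their calls are no support. Cdkn1a, the CDK inhibitor p21, was at 13.34 in wt primary, 13.42 and 13.49 in Wip1-Tg primary, 12.97 and 13.50 in wt secondary and 12.30 in Wip1-Tg secondary spheres. Its differences were -0.63 for passage (SE 0.264, limma adjusted p = 0.1219) and -0.41 for genotype (SE 0.264, limma adjusted p = 0.6233), the latter 0.12 without Wip1-Tg secondary 1. The passage difference of Cdkn1a was -0.10 without Wip1-Tg secondary 1 (adjusted p = 0.8011), and it passed without wt primary 1 (-1.16, 0.04195), without wt secondary 2 (-0.82, 0.03944) and under median scaling (-0.94, 0.008237). Without Wip1-Tg secondary 1 the passage difference is that within wt alone, and without wt primary 1 that within Wip1-Tg alone. The 2 wt secondary arrays of Cdkn1a spanned the level of the primary ones.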

How the data were processed

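RNA from 6 neurosphere samples was hybridised to Illumina MouseWG-6 arrays. Per the file headers, one deposited table gives each probe's raw linear intensity with its detection p-value. The second deposited table holds intensities that the authors had quantile normalized, as its near identical sorted columns show. The scanner software was not given in the sources used here.

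From the deposited intensities, neqc of limma 3.58.1 (R 4.3.3) subtracted a background estimated through the detection p-values, with an offset of 16, and this was followed by quantile normalization and log2. The filter described above left 18274 of 45281 probes, and the brightest kept probe stood for a gene, leaving 12755 features. Symbols came from the platform annotation (34885 probes with 1 symbol, 18 with several, 10378 with none); a check through gene identifiers against the reference table updated 0 symbols.

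Linear models with genotype and passage as additive terms (3 residual degrees of freedom), and with their interaction (2), were fitted over all features with eBayes and Benjamini-Hochberg adjustment at 0.05. The groups with 1 array borrow their spread from the groups with 2. For genes at background on all arrays of a passage, the fold is a lower bound, from the brighter group's mean and, per dimmer array, the higher of its value and the lowest value of any probe above background. The number of arrays limits the precision. The fit was tested on simulated data. The members, roles and lists were chosen with earlier results of these data known. By the rule for named genes, array values are given for the feedback genes, for members past the threshold for passage (up to 12), for the 6 smallest genotype p-values and for the 3 smallest interaction p-values, and at most 3 genes past the threshold are named per further list.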

Additional observations from a re-analysis of the deposited data

How the results depend on the processing

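Up to 18 alternatives were run per result, each with 1 choice changed. Without wt primary 1 the passage difference comes from Wip1-Tg spheres alone, and the genotype difference from secondary spheres alone. Without Wip1-Tg secondary 1 they come from wt spheres alone and from primary spheres alone. The passage falls of Gtse1, Ptp4a3 and Fas passed in all 18, those of Plk2 and Gadd45a in 17, those of Tnfrsf10b, Phlda3 and Pidd1 in 16, Psrc1 in 11, Bbc3 in 9, Rps27l in 7 and the rise of Ddb2 in 4. Calls of p53 targets for passage numbered 19 under median scaling (0 higher, 19 lower, when all features split into 625 higher and 3230 lower, in place of 1826 and 1757), 5 without moderation (918 of all features) and 5 on the 4 arrays with Xist signal (1101 of all features). As single arrays were left out they numbered 6 to 13, over 1363 to 3034 features called: 1855 without wt primary 1, 2356 without wt secondary 1 and 1363 without Wip1-Tg secondary 1. Their median for passage was -0.2528 with the deposited quantile-normalized values, -0.2508 with no filter, -0.6443 under median scaling (all features -0.244) and -0.4478 on the arrays with Xist signal, and -0.4188 to -0.2515 as single arrays were left out.

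The median for genotype was -0.279 under median scaling and 0.06555 in a model of genotype alone, where Gadd45a (0.1435) and Fas (0.223) also turned positive. That model mixes in the passage falls, since 2 Wip1-Tg arrays and 1 wt array were primary. Calls of p53 targets for genotype were 0 in all 18 alternatives and for the interaction 0 in all 14 that could be fitted. Over all features trend and robust variance gave 1 call for genotype and 9 for the interaction, for which the deposited values gave 6, median scaling 9, and an offset of 50, detection on 1 or more arrays and no filter 1 each. Median scaling gave 22 genes whose genotypes did not overlap in place of 13, a count with no share of all features beside it. It also turned the genotype differences of Fbxw7 (-0.05398), Trp53inp1 (-0.1379), Ei24 (-0.09045) and Pidd1 (-0.109). Ercc5 turned for passage under median scaling (-0.264), with the mean of probes (-2.386), with the dimmest probe (-4.823), with genotype left out (-0.04264) and on the arrays with Xist signal (-0.2102), and ran from -0.2376 to 0.3384 as single arrays were left out. With the dimmest probe Mdm4 (0.08473) and Bbc3 (0.5412) turned for passage, and Tnfrsf10b (0.08577, with the mean of probes 0.2563) and Ercc5 (0.1941) for the interaction. The genotype difference of Mdm4 was -0.1055 on the arrays with Xist signal and -0.1055 to 0.2304 as single arrays were left out, and that of Cdkn1a -0.934 to 0.1157. Apart from the swaps of probe and the dropped factor, the cause of these changes was not tested.

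No paired analysis was possible because replicate numbers are shared only by Wip1-Tg primary and wt secondary spheres, which differ in both factors.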

Other observations

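Markers of other cells were read on the same arrays, where 28.1% of all features passed for passage, and their part in the values of the p53 targets was not tested. Of 10 astrocyte markers, all measured, 6 rose and 1 fell from primary to secondary spheres, and their mean log2 intensity was 9.39 to 9.65 on the primary and 10.58 to 11.13 on the secondary arrays. S100b and Slc7a10, among the 6, were above background on the 3 secondary arrays alone, so they passed the filter only through that group. The mean includes both, so part of its rise was built into the selection and it is no support. The marker that fell was Gfap (-1.38, SE 0.212). Of 10 markers of neuroblasts and neurons 8 were measured, 1 of which rose and 3 fell, with a mean of 7.40 to 7.76 on primary and 7.07 to 7.31 on secondary arrays. The rise, of Dcx, and the fall of Stmn2 were in genes above background only in the passage where they were high. The mean of the neuroblast and neuron markers includes both genes and is no support either. Of 10 ependymal markers 6 were measured, 1 of which rose and 3 fell. Of 14 stem and progenitor markers 9 were measured, 1 of which rose and 1 fell (22.2%). Of 10 oligodendrocyte markers 8 were measured, of which 2 fell (25%). Both shares lie below that of all features. For genotype 0 markers of these lists passed.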
